A study of Mus musculus with 6 samples.

Results

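Transcripts of 6 inflammatory chemokines (*Ccl2*, *Ccl3*, *Ccl4*, *Ccl5*, *Ccl8* and *Cxcl2*) and 2 chemokine receptors of myeloid cells (*Ccr1* and *Cxcr1*) were measured in BM of KO and WT mice. The 8 genes were chosen by name, with earlier results of these data known, from a table of 621 genes. BM cells were taken from the femurs and tibias of C57BL/6 mice aged 8 weeks. KO replicates 4, 8 and 9 made 3 libraries, as did WT replicates 1, 3 and 7. The titles and source of the KO samples name *Phc2* knockouts, whereas their genotype field names *Phc2*+/- heterozygotes, and the WT samples are named wild type in each field. Per the series' description, heterozygous parents gave both groups, which are there called knockout and wild type. The product of *Phc2* belongs to Polycomb repressive complex 1. The *Phc2* transcript itself was not analysed here, so the genotypes were not checked on it. Nothing in the sources says that each library came from its own mouse, so the p-values measure the spread between these libraries. The abundance is given in FPKM, a count of fragments divided by exon length and by the total mapped in that library, so that the levels of different genes can be set side by side.

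Chemokines are small secreted proteins that guide leukocytes along gradients by binding G protein-coupled receptors. They are named CC or CXC after the spacing of conserved cysteines near their amino terminus. In BM they take part in the retention and release of monocytes and neutrophils, and many of them are inducible genes that respond within hours to stimuli acting through NF-kB. *Ccl2* attracts monocytes through *Ccr2*. *Ccr1* is a receptor of *Ccl3* and *Ccl5*. *Cxcl2* attracts neutrophils through *Cxcr2*. *Ccr1* is carried by monocytes and neutrophils, and *Cxcr1* by neutrophils, where human CXCR1 is a receptor of CXCL8. *Ccr2* and *Cxcr2* were not analysed here.

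In KO BM the mean log2(FPKM + 1) of each of the 8 genes was above that in WT BM, and none passed the test. The largest differences were those of *Ccl5* and *Cxcl2*, and the smallest was that of *Cxcr1*. With a pseudocount of 0.1 in place of 1, which weighs low genes more, the order was *Cxcl2* (1.35), *Ccl8* (1.29), *Ccl2* (1.24) and *Ccl5* (0.97), with *Cxcr1* still the smallest (0.17). The median log2 fold change was 0.57 over the 8 genes, 0.62 over the 6 ligands and 0.18 over the 2 receptors, and it was -0.35 over all 621 genes. The test was limma on the log2(FPKM + 1) of all 6 libraries, with Benjamini-Hochberg adjustment over the 621 genes. Of these, 0 (0%) passed an adjusted p of 0.05 by limma, where the lowest value was 0.517. Without adjustment, p was under 0.05 for 8 genes higher in KO (1.29%) and for 6 lower in KO (0.966%), and none of the 8 chemokine and receptor genes was among them. This count depended on the setting. Without WT replicate 7 it was 61 higher (9.82%) and 191 lower (30.8%), and *Ccl5* and *Cxcl2* were then among those higher. Each of them had an adjusted p of 0.104 by limma. A higher mean log2(FPKM + 1) in KO was found for 237 of the 621 genes (38.2%), against 8 of 8 here. The 8 genes were chosen with earlier results of these data known, so a count over them is not independent evidence. By mean FPKM, *Cxcr1* was lower in KO (1.56) than in WT (1.72). The KO libraries lay wholly above the WT libraries in 37 genes of the table (5.96%), and among the 8 genes in *Ccl2* and *Ccl5*.

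The libraries did not divide by genotype alone. *Xist*, the noncoding RNA of the inactive X chromosome of female cells, had 74.6 FPKM in KO replicate 4, and WT replicates 1 and 3 had 113 and 98.2 FPKM. Its level was no more than 0.0192 FPKM in KO replicates 8 and 9 and in WT replicate 7. Markers of osteoblasts and chondrocytes (16 of a list of 26 were in the table) moved with *Xist*, with a summed level of 740 FPKM in KO replicate 4 and 1543 and 955 FPKM in WT replicates 1 and 3, and between 126 and 174 FPKM in the other libraries. For the 8 genes and the lists set beside them, KO minus WT within each of these divisions is therefore given beside the value over all libraries. KO replicate 4 is the only KO library with *Xist*, and WT replicate 7 is the only WT library without it. Each value within a division thus rests on 1 library on one side. The authors had chosen the table from the same 6 libraries. Each gene in it differed by 2-fold or more, on their normalized values, in 1 or more of the 9 KO to WT pairings, so the p-values are not independent evidence. *Ccl5* and *Cxcl2* met that bar upward in 4 pairings each, *Ccl3*, *Ccl4* and *Ccl8* in 2, and *Ccl2*, *Ccr1* and *Cxcr1* in 1, while *Cxcl2* and *Cxcr1* also met it downward in 1. In whole BM, a difference in the number of cells of a type cannot be told apart from a difference in RNA per cell.

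*Ccl5* was the most abundant of the 6 chosen chemokines, and its KO and WT libraries did not overlap. This chemokine of T cells and NK cells is encoded on chromosome 11 (GRCm38, 83525778 to 83530518). *Ccl5* measured 67.1, 39.4 and 52.8 FPKM in KO replicates 4, 8 and 9, against 17.9, 27.3 and 38.0 FPKM in WT replicates 1, 3 and 7. The lowest KO library and the highest WT library were close, with a ratio of 1.04. Over the 9 pairs of libraries the KO to WT ratio had a median of 1.94 and reached 3.75, and 4 pairs were at 2 or more. The limma estimate of KO over WT was 0.94 as log2 (SE, standard error, 0.50, adjusted p = 0.598), and 13 of the 621 genes had a higher one. The 95% interval ran from -0.09 to 1.97. Within the libraries with *Xist*, KO minus WT was 1.56 on the log2(FPKM + 1) scale, and it was 0.26 within the others. Without WT replicate 1 the log2 fold change was 0.67, and without WT replicate 7 it was 1.20. The ranges of KO and WT overlapped after quantile normalization.

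Markers of T cells and NK cells, like *Ccl5*, had their highest mean log2(FPKM + 1) in KO replicate 4 and their lowest in WT replicate 1. So did the markers of monocytes, macrophages and dendritic cells that are given below with *Ccl2*. Of 40 genes of the T-cell and NK-cell list 16 were in the table, and all 16 had a higher mean in KO with none passing the test. Their summed level was between 99.6 and 177 FPKM in KO libraries and between 64.1 and 130 FPKM in WT libraries. *Cd3e*, a chain of the T-cell receptor complex, had 6.15, 3.37 and 5.38 FPKM in KO replicates 4, 8 and 9, against 1.11, 1.65 and 5.55 FPKM in WT replicates 1, 3 and 7. WT replicate 7 was thus within the KO range for *Cd3e* and below it for *Ccl5*. None of these markers was at 0 in any library. Their mean log2(FPKM + 1) in KO minus WT was 1.23 within the libraries with *Xist* and -0.04 within the others. The part of these cells in the *Ccl5* difference was not tested. The genes of the table whose log2(FPKM + 1) was most like that of *Ccl5* over the 6 libraries were *Cd59a*, an inhibitor of complement lysis (Pearson r = 0.99), and *Soat2*, a sterol acyltransferase (r = 0.98). With 6 libraries that share one table and one selection, 51 of 544 genes compared had r over 0.9 with *Ccl5*, so likeness of this size was common.

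**Figure D1:**
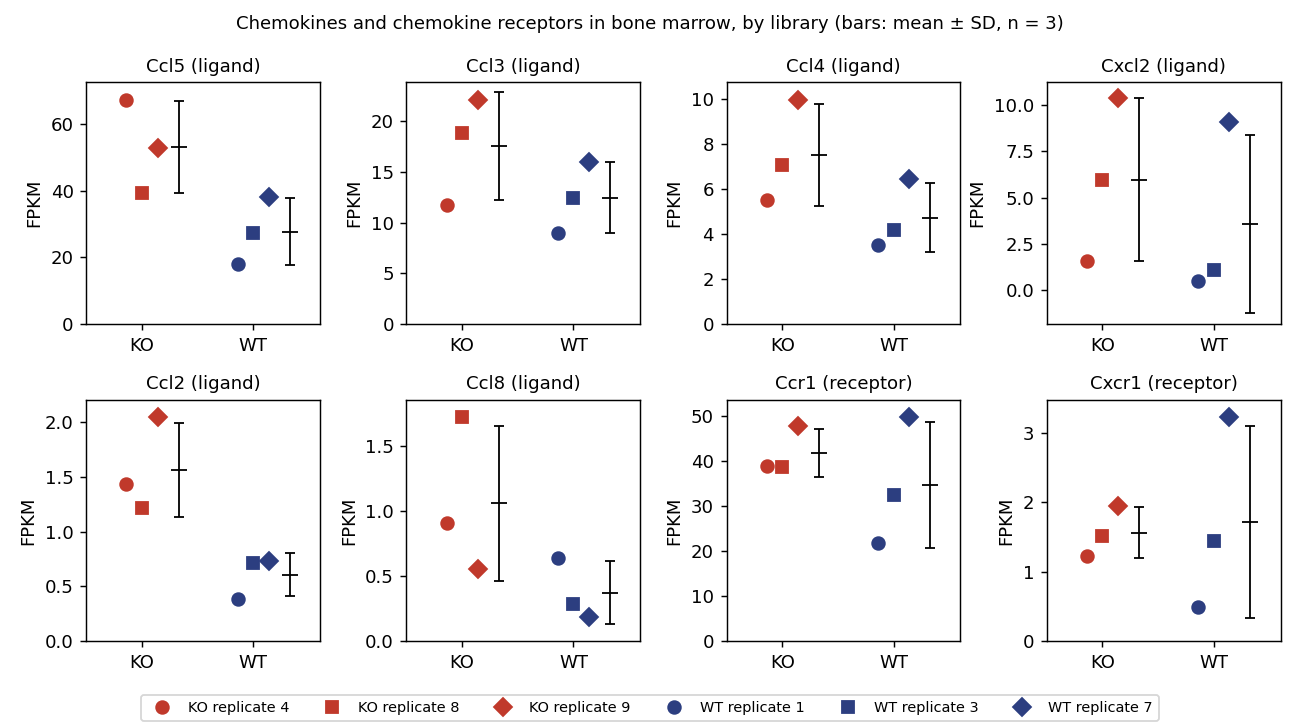
FPKM (vertical axis, linear) of each of the 8 genes in each KO library (red, left) and WT library (blue, right), with the mean and SD of 3 libraries beside the points. KO and WT points are apart in *Ccl5* and *Ccl2* and overlap in the other genes, and WT replicate 7 (blue diamond) is the highest WT library in 7 of them and the lowest in *Ccl8*.

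*Ccl3* and *Ccl4*, chemokines of activated macrophages and lymphocytes, lie side by side on chromosome 11 and were close in pattern. *Ccl3* (83647843 to 83649378) had 11.7, 18.8 and 22.0 FPKM in KO replicates 4, 8 and 9, against 8.94, 12.4 and 16.0 FPKM in WT replicates 1, 3 and 7. The ranges overlapped through KO replicate 4, which was below WT replicates 3 and 7. KO over WT by limma came to 0.45 as log2 (SE 0.48, adjusted p = 0.598). *Ccl4* (83648624 to 83664683) had 5.50, 7.07 and 9.93 FPKM in the KO replicates, against 3.52, 4.19 and 6.43 FPKM in the WT replicates. Here KO replicate 4 was below WT replicate 7 alone, and KO over WT by limma was 0.57 as log2 (SE 0.47, adjusted p = 0.598). Within the libraries with *Xist*, KO minus WT was 0.14 for *Ccl3* and 0.42 for *Ccl4*, and it was 0.33 and 0.34 within the others. Without KO replicate 4 the KO libraries lay above the WT libraries in both genes, as they then did in 10.5% of all genes. The level of *Ccl3* was 2.13 to 2.66 times that of *Ccl4* in KO libraries and 2.48 to 2.97 times in WT libraries. The RefSeq extents of both genes overlap by 755 bases, and the use of strand in the quantification is not given, so reads from that stretch could count for either gene.

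*Cxcl2*, the neutrophil attractant of chromosome 5 (90903899 to 90905938), varied more than any other of the 8 genes. *Cxcl2* measured 1.59, 5.93 and 10.4 FPKM in KO replicates 4, 8 and 9, against 0.480, 1.10 and 9.08 FPKM in WT replicates 1, 3 and 7. Its highest library was 21.6 times its lowest, against 2.27 times for *Ccr1*. Both groups held low and high libraries, and the 3 low ones were those with *Xist*. The limma estimate of KO over WT was 0.90 as log2 (SE 0.63, adjusted p = 0.598). KO minus WT was 0.55 within the libraries with *Xist* and -0.18 within the others. Without WT replicate 7 the log2 fold change was 1.74, without KO replicate 4 it was 1.49, without KO replicate 9 it was 0.42 and without WT replicate 1 it was 0.35. Adding *Xist* (above or below 1 FPKM) to the model gave 0.18.

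Immediate-early and heat shock genes of the table other than *Dusp2* were higher in the libraries without *Xist*, as *Cxcl2* was. *Fos*, which forms AP-1 together with Jun proteins, was the gene of the table most like *Cxcl2* over the 6 libraries (r = 1.00), followed by *Rgs1*, a regulator of G-protein signaling (r = 0.99). Of 544 genes compared, 22 had r over 0.9 with *Cxcl2*. *Fos* had 101, 204 and 251 FPKM in KO replicates 4, 8 and 9, against 64.0, 88.3 and 233 FPKM in WT replicates 1, 3 and 7. Of 33 genes of the list 7 were in the table, 6 with a higher mean in KO and 1, *Dusp2*, with a lower one, and none passed. *Dusp2* had 38.9, 36.9 and 39.0 FPKM in KO replicates 4, 8 and 9, against 75.6, 59.5 and 32.5 FPKM in WT replicates 1, 3 and 7. The summed level of the 7 genes was between 205 and 487 FPKM in KO libraries and between 186 and 418 FPKM in WT libraries. Their mean log2(FPKM + 1) in KO minus WT was -0.03 within the libraries with *Xist* and 0.06 within the others. *Cxcl2* was also close to *Ccl3* (r = 0.93) and *Ccl4* (r = 0.92). The genes most like *Ccl3* were *Osm*, a cytokine of myeloid cells (r = 0.98), and *Hal*, a histidine-degrading enzyme (r = 0.96). Those most like *Ccl4* were the microRNA gene *Mir5107* (r = 0.99) and the stress-responsive kinase gene *Plk3* (r = 0.98). The part of these genes in the *Cxcl2* difference was not tested.

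The promoter of *Cxcl2* is shown with that of *Ccl3*, which moved with it, and that of *Ccl8*, which did not (r = 0.00). Each run is the 250 bases before the transcription start, 5′ to 3′ on the strand of the gene, from RefSeq on GRCm38.p6. The sequences used here covered 5 of the 8 genes. Capitals mark matches on either strand to the NF-kB consensus, to TATAAA and to TGANTCA, the AP-1 site.
*Cxcl2* (chr5:90903649-90903898, + strand): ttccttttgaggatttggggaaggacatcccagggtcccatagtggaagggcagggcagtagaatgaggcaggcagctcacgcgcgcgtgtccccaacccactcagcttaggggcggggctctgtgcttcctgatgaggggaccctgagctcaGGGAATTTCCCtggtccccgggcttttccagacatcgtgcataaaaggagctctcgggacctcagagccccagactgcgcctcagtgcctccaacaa
*Ccl3* (chr11:83649379-83649628, - strand): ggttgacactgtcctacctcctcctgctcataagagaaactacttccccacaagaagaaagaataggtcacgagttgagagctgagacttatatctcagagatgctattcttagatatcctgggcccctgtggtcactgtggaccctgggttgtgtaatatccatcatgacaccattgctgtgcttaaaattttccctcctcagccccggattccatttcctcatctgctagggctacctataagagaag
*Ccl8* (chr11:82114935-82115184, + strand): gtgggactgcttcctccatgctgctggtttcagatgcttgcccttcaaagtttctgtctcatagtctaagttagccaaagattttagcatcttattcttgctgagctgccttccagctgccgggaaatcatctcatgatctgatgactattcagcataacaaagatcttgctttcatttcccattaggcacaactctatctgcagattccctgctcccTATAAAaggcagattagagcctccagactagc
In *Cxcl2* the capitals are 2 overlapping matches to the NF-kB consensus, from 97 to 87 bases before the start. In *Ccl8* they are TATAAA, from 32 to 27 bases before the start. The *Ccl3* stretch held none of these motifs, while *Ccr1* had 1 match to the NF-kB consensus from 74 to 65 bases before the start. Among 32851 promoters of the same length, 7.25% held the NF-kB consensus, 12.4% TATAAA and 6.75% TGANTCA. A match is a description of the letters and was not tested for binding.

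*Ccl2*, the monocyte attractant, was low in level, and its KO libraries were the most clearly apart from the WT libraries. Its gene spans 82035577 to 82037452 of chromosome 11. *Ccl2* measured 1.43, 1.21 and 2.04 FPKM in KO replicates 4, 8 and 9, against 0.382, 0.710 and 0.732 FPKM in WT replicates 1, 3 and 7. Each of the 9 pairs had the higher value in KO, by a ratio of 1.66 to 5.34. KO over WT by limma came to 0.67 as log2 (SE 0.41, adjusted p = 0.598). On this scale the change of a gene near 1 FPKM is shrunk. A pseudocount of 0.1 gave 1.24 with a larger SE, 0.78 (adjusted p = 0.607 by limma). KO minus WT was 0.66 within the libraries with *Xist* and 0.58 within the others. The ranges stayed apart under quantile normalization, with scaling to the same median and on the authors' normalized log2 values. Another pseudocount, another filter or a library left out cannot make separate ranges overlap, so those settings were no check of this. How many fragments stand behind these low values is not known.

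*Ccl2* was most like *Cd163*, the hemoglobin scavenger receptor of macrophages (r = 0.97), and the microRNA gene *Mir7058* (r = 0.96). Of 544 genes compared, 16 had r over 0.9 with *Ccl2*. *Cd163* had 9.84, 9.40 and 11.0 FPKM in KO replicates 4, 8 and 9, against 4.35, 6.39 and 6.56 FPKM in WT replicates 1, 3 and 7. Of 39 markers of monocytes, macrophages and dendritic cells 9 were in the table, all 9 with a higher mean in KO and none passing the test. Their summed level was between 1760 and 2151 FPKM in KO libraries and between 875 and 1688 FPKM in WT libraries, and none was at 0. That sum is carried by *Cd74*, *H2-Aa*, *H2-Ab1* and *H2-Eb1* of MHC class II, which B cells also express. Their mean log2(FPKM + 1) in KO minus WT was 0.86 within the libraries with *Xist* and 0.32 within the others. In 6 of these 9 markers each KO library was above each WT library, against 5.96% of all genes, and this count was given no test. *Cd5l*, *Timd4* and *F13a1* overlapped. *Timd4* had 2.15, 0.981 and 1.26 FPKM in KO replicates 4, 8 and 9, against 1.85, 1.85 and 0.406 FPKM in WT replicates 1, 3 and 7. The part of macrophages in the *Ccl2* difference was not tested.

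*Ccl8*, which acts on *Ccr8* in the mouse, lies 77.7 kb from *Ccl2* (82115185 to 82116799) and had another pattern. *Ccl8* measured 0.908, 1.72 and 0.557 FPKM in KO replicates 4, 8 and 9, against 0.644, 0.290 and 0.183 FPKM in WT replicates 1, 3 and 7. KO replicate 9, the highest KO library for *Ccl2*, was the lowest for *Ccl8* and was below WT replicate 1. The limma estimate of KO over WT was 0.56 as log2 (SE 0.42, adjusted p = 0.598), against 1.29 (SE 0.96) under a pseudocount of 0.1. KO minus WT was 0.39 within the libraries with *Xist* and 0.80 within the others. Its KO and WT ranges were apart on the authors' normalized log2 values, under quantile normalization and when each library was scaled to one median. The gene most like it was the readthrough *Clcf1-pold4* (r = 0.85), followed by the histone gene *Hist1h4b* (r = 0.82). None of the 544 genes compared had r over 0.9 with *Ccl8*.

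**Figure D2:**
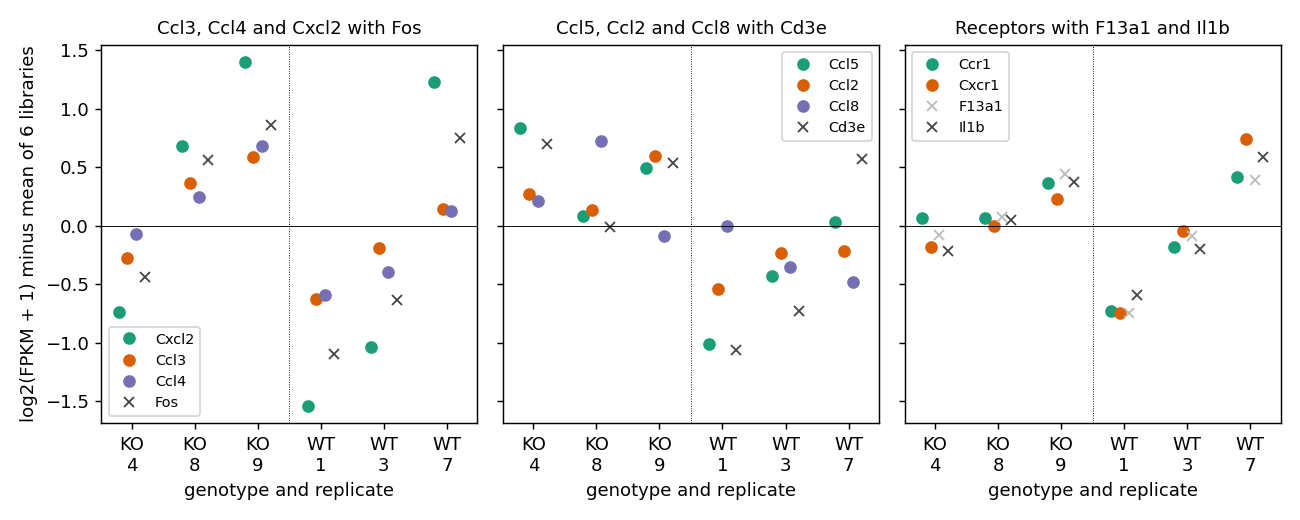
Log2(FPKM + 1) minus the mean of the 6 libraries (vertical axis) in each library (horizontal axis, KO left of the dotted line), for the 8 genes (circles) and for *Fos*, *Cd3e*, *F13a1* and *Il1b* (crosses). In the left panel the points of *Cxcl2* and *Fos* are high in KO replicates 8 and 9 and in WT replicate 7, in the middle panel *Ccl2* is above its mean in the KO libraries alone, and in the right panel WT replicate 1 is lowest for both receptors.

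*Ccr1*, the receptor of *Ccl3* and *Ccl5*, was nearly as abundant as *Ccl5*, and its KO libraries lay inside the WT range. Its gene spans 123962126 to 123968692 of chromosome 9. *Ccr1* measured 38.8, 38.6 and 47.9 FPKM in KO replicates 4, 8 and 9, against 21.9, 32.5 and 49.7 FPKM in WT replicates 1, 3 and 7. The 3 KO values were close to each other and lay between WT replicates 3 and 7. KO over WT by limma came to 0.33 as log2 (SE 0.49, adjusted p = 0.643), with a 95% interval from -0.69 to 1.35. KO minus WT was 0.53 within the libraries with *Xist* and -0.20 within the others. Over all libraries but WT replicate 1 the estimate was 0.05, and over all but WT replicate 7 it was 0.62. *Ccr1* was most like *Crispld2* (r = 0.99) and *F13a1*, a coagulation factor chain of monocytes and megakaryocytes (r = 0.98). *F13a1* had 119, 133 and 172 FPKM in KO replicates 4, 8 and 9, against 74.9, 118 and 166 FPKM in WT replicates 1, 3 and 7.

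*Cxcr1*, on chromosome 1 from 74191785 to 74194708, showed no common direction. *Cxcr1* measured 1.22, 1.51 and 1.95 FPKM in KO replicates 4, 8 and 9, against 0.497, 1.44 and 3.22 FPKM in WT replicates 1, 3 and 7. The WT libraries held both the lowest and the highest value, and the mean FPKM was lower in KO (1.56 ± 0.363) than in WT (1.72 ± 1.38, SD, n = 3 libraries each). On the log2(FPKM + 1) scale limma gave 0.03 (SE 0.46, adjusted p = 0.964), with a 95% interval from -0.92 to 0.99. KO minus WT was 0.22 within the libraries with *Xist* and -0.63 within the others. The fold change was -0.33 without WT replicate 1, -0.07 without KO replicate 9, and -0.21 with the *Xist* term. *Cxcr1* was most like *Il1b*, the inflammatory cytokine interleukin 1 beta (r = 0.96), and *Vcan*, a matrix proteoglycan made by monocytes (r = 0.95). *Il1b* had 38.0, 45.9 and 57.8 FPKM in KO replicates 4, 8 and 9, against 29.1, 38.4 and 66.9 FPKM in WT replicates 1, 3 and 7. Of 30 neutrophil markers, *Il1b* and *Clec4e* alone were in the table, so the level of neutrophils was not compared here.

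**Figure D3:**
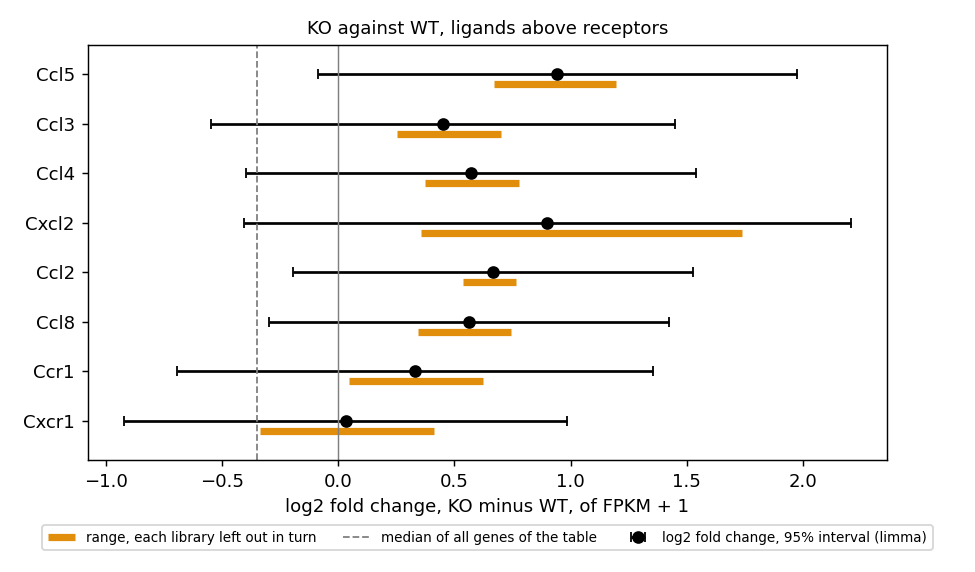
Log2 fold change of KO over WT on FPKM + 1 (horizontal axis) for each gene, with the 95% interval from limma (black) and the range when each library was left out in turn (orange). Each interval includes 0, the orange range of *Cxcr1* extends below 0, and each point lies right of the dashed line at -0.35, the median of all 621 genes. These genes had been selected by fold, so the line is no neutral baseline.

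Levels were next compared among the 8 genes. By mean FPKM over the 6 libraries the order was *Ccl5* (40.4), *Ccr1* (38.2), *Ccl3* (15.0), *Ccl4* (6.11), *Cxcl2* (4.76), *Cxcr1* (1.64), *Ccl2* (1.08) and *Ccl8* (0.717). *Ccr1* was above *Ccl3*, and *Ccl3* above *Ccl4*, in 6 of 6 libraries. The other neighbours did not keep their order in every library. *Cxcl2* was below *Ccl4* in 4 of 6 libraries and above it in KO replicate 9 and WT replicate 7. *Cxcl2* over *Cxcr1*, *Cxcr1* over *Ccl2* and *Ccl2* over *Ccl8* were each kept in 4 of 6 libraries, so the order of each such neighbouring pair varied between libraries. Differences in level between genes were not tested. Genes further apart can keep their order, as *Cxcl2* was above *Ccl2* in 6 of 6 libraries. The coefficient of variation was lower among KO libraries than among WT libraries in 7 of the 8 genes, with *Ccl3* the exception, and in 390 of the 621 genes (62.8%). It was 12.6% in KO and 40.5% in WT for *Ccr1*, and 23.2% and 80.4% for *Cxcr1*.

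*Ccl5* and *Ccr1* stood in one order in KO and in the other in WT. *Ccl5* was above *Ccr1* in 3 of 6 libraries, and these were the KO libraries. The ratio of *Ccl5* to *Ccr1* was 1.73, 1.02 and 1.10 in KO replicates 4, 8 and 9, against 0.817, 0.840 and 0.766 in WT replicates 1, 3 and 7. In KO replicate 8 the levels were nearly equal. This pair was picked out after its values were seen, and its ratio was given no test. Of the 28 ratios that the 8 genes form, 5 (17.9%) did not overlap between KO and WT, against 17987 of the 192510 ratios among all genes (9.34%). The other 4 were those of *Ccl2* to *Ccl3*, *Ccl4*, *Ccr1* and *Cxcr1*, each higher in KO.

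Ligands and receptors were then compared within each library. The mean log2(FPKM + 1) of the 6 ligands was 2.67, 3.01 and 3.25 in KO replicates 4, 8 and 9, against 1.91, 2.19 and 2.77 in WT replicates 1, 3 and 7. That of the 2 receptors was 3.23, 3.32 and 3.58 in the KO replicates, against 2.55, 3.18 and 3.87 in the WT replicates. Both overlapped between the genotypes, as WT replicate 7 was above KO replicate 4 in the ligands and above all KO libraries in the receptors. The ligand mean minus the receptor mean was -0.56, -0.31 and -0.34 in KO replicates 4, 8 and 9, against -0.64, -0.98 and -1.10 in WT replicates 1, 3 and 7. This difference did not overlap, though KO replicate 4 and WT replicate 1 were close, and as a score over chosen genes it was given no test. No like score over other genes is given beside it. The 2 receptors are not those of all 6 ligands, as *Ccr2* and *Cxcr2* were not analysed. KO minus WT of this score was 0.25 within the libraries with *Xist* and 0.77 within the others. The summed FPKM of the ligands was 88.2, 74.2 and 97.7 in the KO replicates, against 31.8, 46.0 and 70.4 in the WT replicates. *Ccl5* made up 53.1% to 76.1% of that sum in KO libraries and 54.0% to 59.3% in WT libraries.

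**Figure D4:**
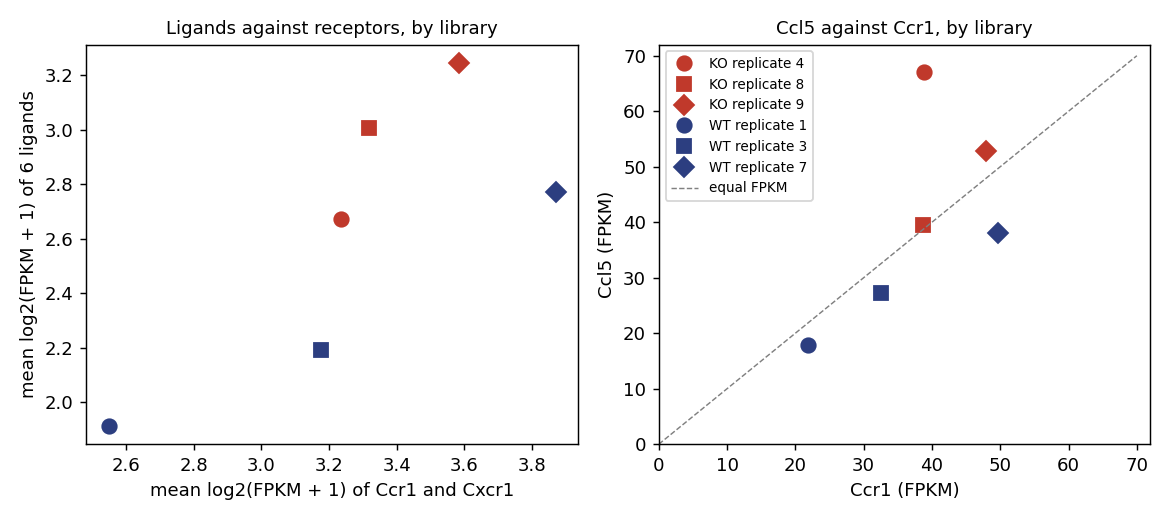
Left, mean log2(FPKM + 1) of the 6 ligands (vertical) against that of the 2 receptors (horizontal) in each KO (red) and WT (blue) library, and right, FPKM of *Ccl5* against *Ccr1* with a dashed line of equal FPKM. The ligand mean minus the receptor mean is higher in each KO library than in each WT library, with KO replicate 4 (-0.56) close to WT replicate 1 (-0.64). For *Ccl5* the KO points are above the line and the WT points below it.

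Of 64 chemokines, chemokine receptors and decoy receptors, 3 more were in the table, and none of them passed the test. *Ppbp*, the platelet chemokine, had 24.6, 7.78 and 9.30 FPKM in KO replicates 4, 8 and 9, against 29.1, 32.5 and 11.6 FPKM in WT replicates 1, 3 and 7. Unlike the 8 genes, *Ppbp* had the lower mean in KO, and its ranges overlapped. KO over WT by limma came to -0.82 for *Ppbp* (SE 0.54, adjusted p = 0.598). KO minus WT for *Ppbp* was -0.31 within the libraries with *Xist* and -0.40 within the others. The lymphocyte receptor *Ccr6* had 3.34, 3.04 and 4.11 FPKM in the KO replicates, against 0.666, 1.14 and 2.87 FPKM in the WT replicates. *Cxcr5*, the receptor that guides B cells to follicles, had 11.0, 9.30 and 12.3 FPKM in the KO replicates, against 4.95, 6.04 and 8.84 FPKM in the WT replicates. In *Ccr6* and *Cxcr5* each KO library was above each WT library, and their log2 fold changes were 0.90 and 0.67 (standard error 0.46 each, adjusted p = 0.598 from limma). Within the libraries with *Xist* the difference was 1.20 for *Ccr6* and 0.89 for *Cxcr5*, and within the others it was 0.23 and 0.25. Of 28 inflammatory cytokines and NF-kB feedback genes 6 were in the table, 5 with a higher and 1, *Il12a*, with a lower mean in KO, and none passed. Within the libraries with *Xist* their mean log2(FPKM + 1) in KO minus WT was 0.09, and within the others it was -0.01. *Osm* had 18.9, 40.5 and 55.3 FPKM in KO replicates 4, 8 and 9, against 12.0, 17.1 and 39.8 FPKM in WT replicates 1, 3 and 7.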

How the data were processed

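Poly(A) RNA of BM cells was sequenced. The authors aligned reads to mm10 and quantified each library by StringTie (version 1.3.3b). The aligner is HISAT version 2.0.5 in their methods and HISAT2 of that version in the processing notes, which also name Bowtie2 with no role. The authors deposited FPKM for 621 genes that they had selected by fold, and a log2 value per library after another normalization that neither the methods nor the labels name. Library depth is unknown, so no counting interval is given. Columns of the authors' own folds and enrichment statistics were not used.

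FPKM were transformed to log2(FPKM + 1) and fitted in R (version 4.3.3) by limma (version 3.58.1), whose variance prior followed the mean level. The fit was tested on simulated data. The filter, a value above 0 in 3 or more libraries, kept all 621 genes. A 95% interval rests on the moderated variance. Levels, orders, ratios and lists were described without a test, with Python version 3.11.15. Coordinates are those of RefSeq on GRCm38, the assembly that mm10 names.

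The 8 genes, the gene lists and the division by *Xist* were chosen with earlier results of these data known. Genes named are the 8, other chemokine system genes of the table, the 2 genes most like each of the 8 by Pearson r over the 6 libraries among those with a mean of at least 1 FPKM and no predicted-gene symbol, and up to 3 genes with the highest mean in other lists. *Xist* is named as a label of the libraries, and *Cd3e* is one of the markers listed for T cells. *H2-Eb1*, *Il12a*, *Cd5l* and *Timd4* were named after their values were seen. Lists of B cells, eosinophils, endothelial cells, mesenchymal cells and megakaryocytes were computed as well. Their median log2 fold changes were -0.36 for mature B and plasma cells, -0.55 for B-cell precursors, -0.52 for eosinophils and mast cells, -0.69 for endothelial cells, -0.44 for mesenchymal cells and -0.50 for megakaryocytes, with none passing. It was 0.68 for monocytes and macrophages, 0.64 for T and NK cells, 0.14 for neutrophils, 0.53 for immediate-early genes, 0.39 for inflammatory cytokines and -0.69 for osteoblasts and chondrocytes. A list of signaling genes is not reported here.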

Additional observations from a re-analysis of the deposited data

How the results depend on the processing

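Settings tried in place of those reported were a pseudocount of 0.1, no filter on low values, a mean of at least 1 FPKM (which leaves out *Ccl8*), quantile normalization, scaling to the same median, no intensity trend, the authors' normalized log2 values, a term for *Xist*, a threshold of 0.01 and each library left out in turn. Of 111 alternative values for the 8 genes, 108 kept their direction and 0 passed an adjusted p of 0.05, with adjusted p by limma between 0.104 and 0.992. The settings without a filter, with a mean of at least 1 FPKM and without the intensity trend left each fold change as it was. Their values are part of the 108 but could not have changed direction. The 3 that changed direction were all of *Cxcr1*, at -0.21 with the *Xist* term and, among values from -0.33 to 0.41 with a library left out, without WT replicate 1 and without KO replicate 9. With a library left out, the number of genes called among all 621 ranged from 0 to 1, with *Xist* without KO replicate 4 and *Atp6v0c-ps2* without KO replicate 9, both named after seeing the data. Among the 8 genes, those with KO and WT ranges apart numbered 2 to 5 with a library left out. A library left out cannot make separate ranges overlap, so this count could not fall. It was 5 without WT replicate 7, where KO lay wholly above WT in 21.1% of all genes and wholly below in 45.7%. Without KO replicate 4 it was 4, where these shares were 10.5% and 13%. KO lay above WT in each of the 5 and of the 4. Genes with unadjusted p under 0.05 by limma numbered 22 higher and 4 lower in KO with quantile normalization, 21 and 2 with scaling to the same median, 20 and 10 with the *Xist* term and 11 and 33 without KO replicate 4. Of the 8 genes these held *Ccl2* with quantile normalization and with the *Xist* term, *Ccl5* with scaling to the same median and *Cxcl2* without KO replicate 4, with adjusted p from limma between 0.596 and 0.705. The median of all genes moved to -0.18 with quantile normalization and -0.22 with scaling to the same median. It was -0.15 with the *Xist* term and -0.13 without WT replicate 1. Relative to the median the 8 genes lay 0.38 to 1.29 above it, against 0.36 to 1.22 after quantile normalization. All 621 genes had been selected by fold from these libraries, so their median is no neutral baseline. *Cxcr1* was below that median with the *Xist* term (-0.05) and without WT replicate 1 (-0.20). No paired analysis was possible because the KO and WT libraries share no replicate number. Depth is unknown, so the precision of *Ccl8*, *Ccl2* and *Cxcr1*, the genes of lowest level, cannot be given.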
